A study of Rattus norvegicus with 16 samples.

Results

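The immediate early genes examined here were 10 genes chosen by name, namely Fos, Fosb, Jun, Junb, Jund, Egr1, Atf3, Ier2, Dusp1 and Zfp36, out of 14930 genes listed in any of the 16 expression files. Of these, 9 were listed in all 16 files and passed the filter on low values in every comparison. Ier2, a small early response protein, was listed in 0 of the 16 files and has no value here. The study took discs from 8 male Sprague-Dawley rats, 8 weeks old at surgery, whose lumbar spine was exposed through the retroperitoneum for disc puncture with a 27G needle. Rats 1 to 4 were killed 2 weeks and rats 5 to 8 were killed 8 weeks after the injury. From each rat 1 single-cell RNA library was made from its pooled, unpunctured L2-3 and L3-4 discs (control, CON) and 1 from its pooled, punctured L4-5 and L5-6 discs (lumbar disc puncture, LDP), which gave 4 libraries in each of the 4 groups. CON discs therefore came from operated animals, and no group of animals without surgery was analysed here. All discs were digested with pronase and type 2 collagenase for less than 4 hours at 37 °C, and the cells were then held on ice, so that every library, CON included, shares the digestion.

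Immediate early genes are transcribed within minutes of a growth factor, stretch, damage or stress signal, with no need for new protein, and most of their mRNAs are short-lived. The Fos and Jun proteins pair to form the AP-1 transcription factor, Egr1 is a zinc finger transcription factor, and Atf3 is a transcription factor of the stress response. Dusp1, a phosphatase that switches off MAP kinases, and Zfp36, which speeds the decay of short-lived mRNAs, are feedback regulators induced by the same signals. Enzymatic digestion of a tissue is itself known to induce these genes, so a single-cell level can hold both what the cell made in the animal and what it made during preparation.

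For 4 of the genes the 250 bases before the transcription start are shown, 5′ to 3′ on the strand of the gene, since Egr1, Junb and Zfp36 carry the largest differences described below and Jund is the member whose level varied least. The sequences are those of RefSeq for the GRCr8 rat assembly, whereas the expression files were made on rn6. Capitals mark matches, on either strand, to the cyclic AMP response element TGACGTCA, the AP-1 element TGANTCA, the TATA box TATAAA, the EGR element GCGNGGGCG and the CArG box, to which serum response factor binds. The windows are chr18:26736828-26737077, plus strand, for Egr1, chr19:40080876-40081125, plus strand, for Junb, chr1:92799109-92799358, minus strand, for Zfp36, and chr16:18769772-18770021, minus strand, for Jund.
Egr1: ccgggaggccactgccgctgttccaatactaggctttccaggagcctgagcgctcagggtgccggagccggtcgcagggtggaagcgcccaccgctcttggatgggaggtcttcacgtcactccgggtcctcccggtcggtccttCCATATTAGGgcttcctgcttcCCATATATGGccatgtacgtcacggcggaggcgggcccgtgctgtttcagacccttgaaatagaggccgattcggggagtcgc
Junb: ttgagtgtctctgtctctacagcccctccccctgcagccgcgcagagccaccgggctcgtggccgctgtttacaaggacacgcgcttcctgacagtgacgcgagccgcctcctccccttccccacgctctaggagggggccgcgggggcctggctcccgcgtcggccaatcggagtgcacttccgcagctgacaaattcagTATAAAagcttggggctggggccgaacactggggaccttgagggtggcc
Zfp36: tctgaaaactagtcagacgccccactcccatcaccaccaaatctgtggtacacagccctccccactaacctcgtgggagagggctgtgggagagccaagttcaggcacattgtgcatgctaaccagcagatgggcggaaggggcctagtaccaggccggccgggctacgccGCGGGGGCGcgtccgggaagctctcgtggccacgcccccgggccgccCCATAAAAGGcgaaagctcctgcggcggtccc
Jund: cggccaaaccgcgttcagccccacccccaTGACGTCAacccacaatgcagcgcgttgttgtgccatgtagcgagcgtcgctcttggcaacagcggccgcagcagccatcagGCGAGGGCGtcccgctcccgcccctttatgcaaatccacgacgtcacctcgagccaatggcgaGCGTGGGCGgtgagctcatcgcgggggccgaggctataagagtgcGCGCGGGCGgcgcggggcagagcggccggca

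The Egr1 window held 2 CArG boxes, at 105 to 96 and at 83 to 74 bases before the start, and the Zfp36 window held 1 CArG box at 32 to 23 bases and 1 EGR element at 79 to 71 bases before it. The Junb window held a TATA box at 49 to 44 bases before the start. The Jund window held 1 cyclic AMP response element at 221 to 214 bases and EGR elements at 139 to 131, 76 to 68 and 31 to 23 bases before the start. Promoter entries were found for 7 of the 10 members (not for Fos, Jun and Atf3). Of these 7, CArG boxes were found in 2 (Egr1 and Zfp36) against 1.5% of all 33469 promoters, and EGR elements in 2 (Jund and Zfp36) against 4.29%. The cyclic AMP response element was found in 3 (Jund, Ier2 and Dusp1) against 1.59%, the TATA box in 2 (Fosb and Junb) against 12.9%, and the AP-1 element in 0 against 6.34%. The 4 windows shown hold 63.2 to 68.4% G and C, against a median of 51.2% over all promoters. The windows of Fosb, Ier2 and Dusp1, not shown, hold 43.6, 53.2 and 68.8%. A match describes these letters only and is no evidence of binding.

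The files held 149272 cells, of which 127077 belonged to the authors' disc cell class (IVD cells), with 2221 to 15918 cells and 17759809 to 85025591 UMIs (counted mRNA molecules) per library. The 4 IVD markers Col2a1, Comp, Acan and Sox9 were listed in every library and none was at 0. At 2 weeks the study split IVD cells into cells of the nucleus pulposus (NP), the gel-like core, and cells of the inner (IAF) and outer (OAF) parts of the annulus fibrosus, the fibrous ring. In NP cells the classical marker Krt18 was near absent (2.04 to 4.86 CPM per library), whereas Cd24 was present (278 to 695 CPM). Krt8 and Krt19, the other NP markers listed, are not given here. Cd24 does not by itself set NP cells apart, since the study describes marker levels as graded from inner to outer disc. The files number these subclusters without naming them. The order differed between the CON and LDP files, and the numbers were matched to names by values that the study gives for each subcluster, depth among them. Levels are given as mean CPM, that is UMIs per 1000000 UMIs of a cell averaged over the cells of a class in a library. One library stood apart in these genes, that from the CON discs of rat 2 (3896 cells against 8709 to 15918 in the other 2-week libraries). Over all genes the LDP library of rat 4 stood further apart, with 1008 genes more than 2-fold lower and 101 higher than the mean of the other 3 in its group, against 52 and 124 in CON rat 2, but with 0 members past 2-fold. The fitted differences that rest on CON rat 2 are given with and without it, a choice made after the data were seen.

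Among the Fos members, mean Fos levels in IVD cells at 2 weeks were 243, 681, 221 and 251 CPM in the CON libraries of rats 1 to 4, and 176, 271, 184 and 211 CPM in their LDP libraries. At 8 weeks Fos was at 367, 473, 331 and 283 CPM in CON and at 172, 269, 348 and 488 CPM in LDP libraries of rats 5 to 8. The groups overlapped at both times, and only the CON library of rat 2 lay above 500 CPM. Fosb, which forms AP-1 as Fos does, was at 139, 195, 112.5 and 127 CPM in the CON libraries at 2 weeks. Its LDP libraries at 2 weeks were at 94.8, 107, 99.6 and 104 CPM. Every CON library thus lay above every LDP library at that time. How many of all genes separate CON and LDP so was not counted. At 8 weeks Fosb was at 182, 223, 163 and 158 CPM in CON and 61.9, 149, 159 and 242 CPM in LDP libraries, with overlap.

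Among the Jun members, Junb was at 156, 1063, 132 and 106 CPM in CON and 84.2, 93.5, 104 and 173 CPM in LDP libraries at 2 weeks. At 8 weeks it was at 300, 366, 298 and 220 CPM in CON and 193, 184, 282 and 295 CPM in LDP libraries. Every 8-week library was above every 2-week library except the CON library of rat 2. Here and below, how many of all genes separate the times in this way was not counted. Jun, the AP-1 subunit that gives the family its name, ranged from 195 CPM (LDP, rat 5) to 987 CPM (CON, rat 2), with overlap of all 4 groups. Jund, the Jun member that cells keep at a steadier level, ranged from 163 to 347 CPM and its groups overlapped.

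Egr1 was at 152, 2159.8, 113 and 110 CPM in the CON libraries and at 88.3, 90.8, 118 and 81.8 CPM in the LDP libraries at 2 weeks. At 8 weeks Egr1 was at 400, 513, 352 and 410 CPM in CON and at 226, 260, 518 and 660 CPM in LDP libraries. Its CON and LDP groups overlapped at both times, and the 8-week libraries did not overlap the 7 other 2-week libraries. Atf3 ranged from 201 CPM (LDP, rat 5) to 1326 CPM (CON, rat 2) with overlap of all groups.

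Of the feedback regulators, Zfp36 was at 44.9, 226, 33.5 and 26.4 CPM in CON and 21.3, 27.4, 23.9 and 39.3 CPM in LDP libraries at 2 weeks. At 8 weeks Zfp36 was at 97.3, 90.5, 55.5 and 73.4 CPM in CON and 65.2, 60.4, 71.4 and 65.2 CPM in LDP libraries. As for Egr1 and Junb, no 8-week library fell within the range of the 2-week libraries other than CON rat 2. Dusp1 ranged from 251 CPM (LDP, rat 5) to 1376 CPM (CON, rat 2) and its groups overlapped.

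**Figure D1:**
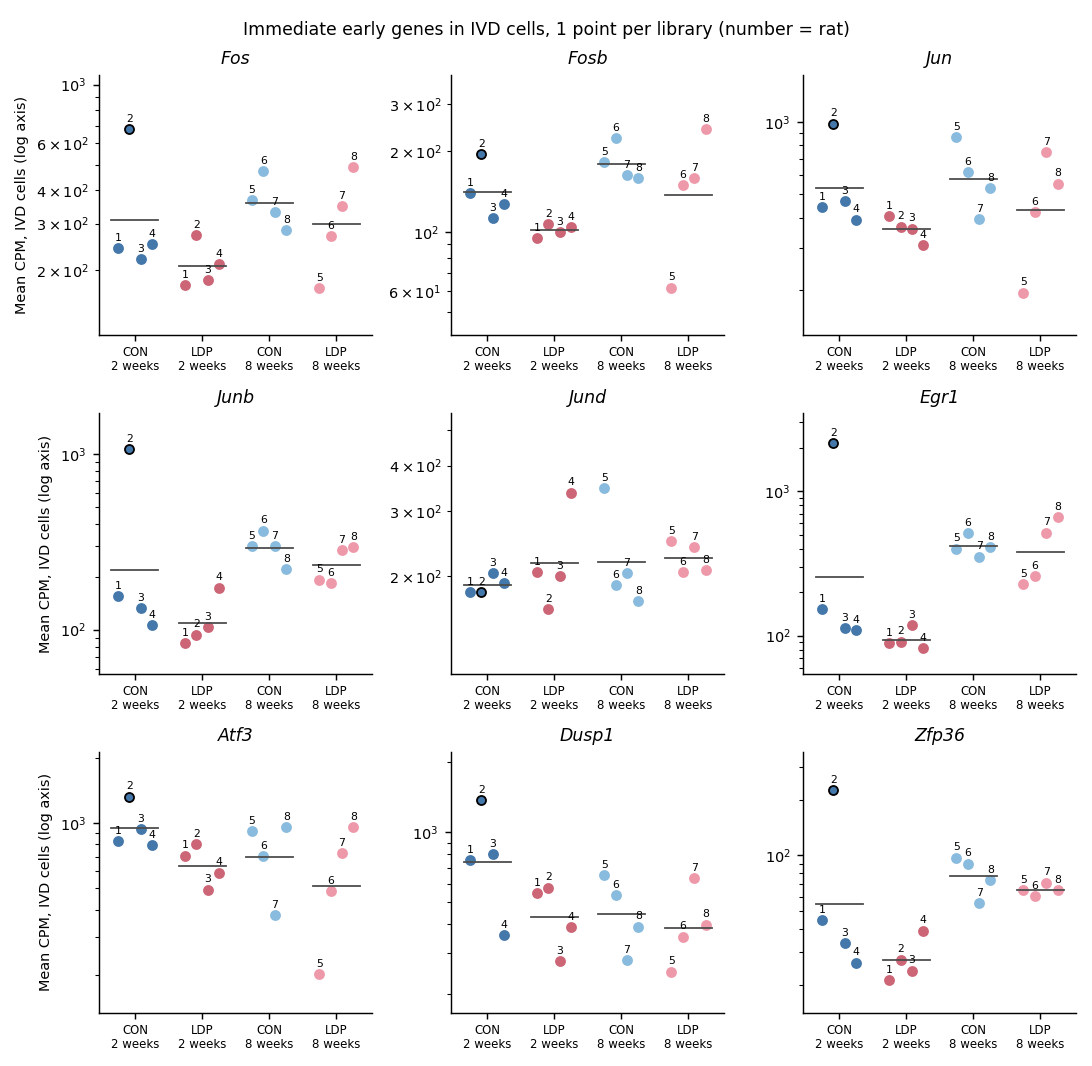
Mean CPM in IVD cells (log axis) of the 9 listed members in the 16 libraries, by group, with the rat number as the point, the group mean on the log2 scale as a line and the CON library of rat 2 ringed. Egr1, Junb and Zfp36 show the ringed library far above its group (2159.8, 1063 and 226 CPM) and 8-week libraries above the other 2-week libraries, whereas Jund stays between 163 and 347 CPM throughout.

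The CON library of rat 2 exceeded the mean of the 3 other 2-week CON libraries by 4.11 log2 units for Egr1, 3.03 for Junb and 2.69 for Zfp36, which ranked 1, 3 and 5 of the 8355 genes tested. Its gap was 1.51 for Fos, 1.19 for both Dusp1 and Jun, 0.64 for Atf3 and 0.63 for Fosb. Jund was no higher, with a gap of -0.08. More than 2-fold higher levels were found for 6 of the 9 members and for 124 of all 8355 genes. Of a list of 41 further early response genes, 19 were more than 2-fold higher and 1 lower (median gap 0.85 log2 units, against -0.03 over all genes). The heat shock genes, which a heat or protein folding stress induces, did not share the gap: 0 of 11 were more than 2-fold higher and their median gap was -0.21.

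Within that library the gaps of Egr1, Junb and Zfp36 were large in NP and IAF cells and far smaller in the other classes. In NP cells it was 4.74 log2 units for Egr1, 3.59 for Junb, 3.33 for Zfp36 and 2.46 for Fos, and in IAF cells it was 4.04, 2.89, 2.76 and 1.38. In OAF cells of the same library the gaps were -0.44 for Egr1, -0.02 for Junb, 0.16 for Zfp36 and 0.50 for Fos. In endothelial cells they were -0.14, 0.12, 0.27 and -0.41. Atf3 followed this division only in part, its gap being 0.73 in NP, 0.57 in IAF, 0.52 in OAF, 0.15 in myeloid and -0.27 in endothelial cells. In cells left without a class the gaps ran from -0.29 for Jund to 0.71 for Fosb, with 0.34 for Egr1, 0.24 for Junb, 0.68 for Zfp36 and 0.50 for Fos. The LDP library of the same rat was not high, with a median member gap of 0.05 to the other LDP libraries. NP cells made up 69.7% of the IVD cells of the CON rat 2 library against 34.7 to 58.0% in the other 2-week libraries, its median depth was 7640 UMIs per IVD cell, and its median mitochondrial share was 3.48%. The part of these values in its high levels was not tested.

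**Figure D2:**
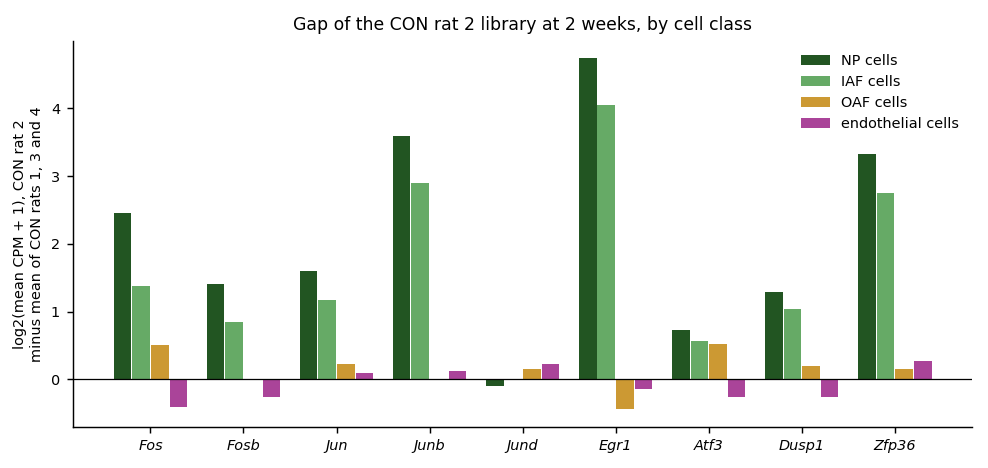
Difference in log2 (mean CPM + 1) between the CON library of rat 2 and the mean of the CON libraries of rats 1, 3 and 4, for each listed member, in NP, IAF, OAF and endothelial cells (1 bar per class). The bars of Egr1 reach 4.74 in NP and 4.04 in IAF cells and lie at -0.44 in OAF and -0.14 in endothelial cells.

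The high level in rat 2 was spread over most of its NP cells. After each cell was thinned to 1000 UMIs, Egr1 was detected in 75.1% of the NP cells of that library, against 9.14, 8.04 and 6.30% in the CON libraries of rats 1, 3 and 4. Without thinning the shares were 93.5% against 32.3, 30.7 and 27.3%. Junb was detected after thinning in 53.7% against 11.1, 8.37 and 6.85%. NP cells with Egr1 held 24.8 Egr1 UMIs on average, against 2.25 to 2.81 in the other 3 libraries. At the same 1000 UMIs, lymphoid cells, which are not a disc cell type but can express Egr1 themselves, showed Egr1 in 4.40 to 22.5% of cells per library. In CON rat 1, the 1 CON library at 2 weeks with enough lymphoid cells, the share was 4.40% in lymphoid against 9.14% in NP cells. The part of free RNA in these shares was not tested.

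The first question was whether puncture changed these genes in IVD cells at 2 weeks. By limma on the log2 library means with rat as block, no member passed an adjusted p of 0.05, against 0.144% of the 8355 genes tested. At an unadjusted p under 0.05 there were 2 members, Egr1 and Zfp36, and 956 of all genes (11.4%). By edgeR and by DESeq2 on summed counts also 0 members passed, of 19 and 233 genes called. Lower values in LDP were fitted for 8 of the 9 members, with a median log2 difference of -0.58 against -0.08 over all genes, of which 36.9% were above 0. Egr1 differed by -1.43 (SE 0.64, 95% interval -2.85 to -0.00, adjusted p = 0.434, lower in 3 of 4 rats), Junb by -1.01 (SE 0.53, adjusted p = 0.487) and Zfp36 by -0.99 (SE 0.44, adjusted p = 0.434). Fos differed by -0.58, Atf3 and Jun by -0.57, and Fosb by -0.47, each lower in 4 of 4 rats. Dusp1 differed by -0.78, and Jund by 0.20.

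These values rested in large part on rat 2. Without it, Egr1 differed by -0.38 (SE 0.34, 95% interval -1.15 to 0.39), Junb by -0.18, Zfp36 by -0.32 and Fos by -0.33, and no member had an unadjusted p under 0.05. Over all 8258 genes then tested 0% passed, with 795 at an unadjusted p under 0.05. Dusp1 moved little, from -0.78 to -0.63 (SE 0.44, adjusted p = 0.565), and Atf3 from -0.57 to -0.52. The 95% intervals without rat 2 still allow a difference of more than 2-fold lower for Egr1, Dusp1, Atf3, Jun, Fos and Fosb.

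The second question was whether puncture changed them at 8 weeks. No member passed (0.383% of 8355 genes did), 0 had an unadjusted p under 0.05 against 1662 of all genes (19.9%), and edgeR and DESeq2 also called 0 members, of 26 and 499 genes called. The fitted differences ran from -0.44 for Atf3 to 0.04 for Jund, with adjusted p from 0.438 to 0.916. The fit took 1 estimate of spread from all 16 libraries, so CON rat 2 enters the SEs, intervals and p-values at 8 weeks as well. Egr1 had an SE of 0.64 at both times. No 8-week interval without rat 2 is printed here. Egr1 differed by -0.14 (95% interval -1.56 to 1.28), being lower in LDP discs of rats 5 and 6 and higher in those of rats 7 and 8. Fos, Jun and Dusp1 took the same directions in these rats, but some gaps were small. In rat 8 Dusp1 was at 391 CPM in CON and 400 CPM in LDP, and Jun at 532 and 555 CPM. In rat 7 Fos was at 331 and 348 CPM. Atf3 was lower in LDP discs of rats 5 and 6, higher in those of rat 7, and at 959 CPM in each library of rat 8. Among the LDP libraries that of rat 5 had 4 members more than 2-fold lower than the mean of the other 3 LDP libraries at 8 weeks, and 626 of all genes.

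The difference between the 2 injury effects was tested directly. No gene passed (0%, with 100 of 8355 genes at an unadjusted p under 0.05), and edgeR called 0 and DESeq2 6 genes, no member among them. For Egr1 the difference, 8 weeks minus 2 weeks, was 1.29 (SE 0.90) with all rats and 0.24 (SE 0.45) without rat 2. Without rat 2 also 0% of genes passed, with 65 at an unadjusted p under 0.05.

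At 2 weeks the comparison was also made within each disc subcluster. In NP cells no member passed, nor did any of 7791 genes (0%, 744 at an unadjusted p under 0.05). Atf3 (-0.76, SE 0.17, adjusted p = 0.316) and Dusp1 (-0.95, SE 0.27, adjusted p = 0.379) were lower in LDP discs of all 4 rats and were the 2 members with an unadjusted p under 0.05. Without rat 2 they were at -0.67 and -0.81, while Egr1 went from -1.63 to -0.42 (SE 0.19, adjusted p = 0.732). Without rat 2 again 0% of genes passed, 457 of 7817 genes having an unadjusted p under 0.05.

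In IAF cells 7 of the 9 members had an unadjusted p under 0.05 with all rats, and none passed after adjustment (0% of 7730 genes, 994 at an unadjusted p under 0.05). The largest fitted differences were -1.52 (SE 0.69) for Egr1, -1.34 (SE 0.55) for Junb and -1.27 (SE 0.47) for Zfp36. Without rat 2, 1 member was left at an unadjusted p under 0.05, Atf3 at -0.66 (SE 0.24, adjusted p = 0.619), against 481 of 7736 genes, and 0.0129% of genes passed. Fos then differed by -0.61 and Egr1 by -0.46.

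In OAF cells the LDP differences ran from -0.12 for Jun to 0.19 for Atf3 except for Junb, with 7 of 9 members below 0. No member passed whereas 1.25% of 8802 genes did. With all rats the median over members was -0.07 in OAF, -0.76 in NP and -0.86 in IAF cells. Without rat 2 the NP and IAF medians were -0.39 and -0.57. Whether the injury difference itself differed between OAF and the other disc cells was not tested. Junb was at 283, 235, 185 and 257 CPM in CON and at 324, 232, 331 and 596 CPM in LDP OAF cells of rats 1 to 4. The groups overlapped, LDP was higher in 3 of 4 rats, and the difference was 0.56 (SE 0.23, adjusted p = 0.427). With each rat left out in turn it ran from 0.34 to 0.75, the highest value being that without rat 2. Of the further early response genes 1 of 44 rose in OAF cells, Gadd45a, a growth arrest and DNA damage gene (0.92, SE 0.15, adjusted p = 0.0354). No tool other than limma was run within subclusters.

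The third question was whether levels differed between 8 and 2 weeks. In LDP libraries 3 members rose, Egr1 by 1.99 (SE 0.33, 95% interval 1.26 to 2.73, adjusted p = 0.0127), Zfp36 by 1.23 (SE 0.19, adjusted p = 0.00972) and Junb by 1.09 (SE 0.26, adjusted p = 0.0459), against 4.13% of 7792 genes called in either direction (90 higher, 232 lower). With each rat left out in turn the count of genes called over time ran from 48 (without rat 2 or rat 3) to 1123 (without rat 4), where the 3 members passed as well. With any 1 of the other 7 rats left out Junb lost its call (limma, adjusted p 0.0598 to 0.139). In each of these genes the 4 LDP libraries at 8 weeks lay above the 4 at 2 weeks. How many of all genes do so was not counted. The other AP-1 genes did not pass: Fos differed by 0.52 (adjusted p = 0.331), Fosb by 0.44, Jun by 0.26 and Jund by 0.04. Atf3 and Dusp1 differed by -0.32 and -0.15. The call for Junb held in 3 of 13 alternative analyses, that for Zfp36 in 10 and that for Egr1 in 11. Without rat 2 the adjusted p was 0.0533 for Egr1 and 0.0501 for Zfp36.

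In CON libraries no member passed with all rats, against 22.9% of 8022 genes, and edgeR and DESeq2 also called 0 of those given an adjusted p. DESeq2 gave none for Junb, Egr1 and Zfp36, and an unadjusted p under 0.05 was reached by 0 members in limma against 3027 of all genes (37.7%). Egr1 differed by 0.71 (SE 0.79, adjusted p = 0.549), Junb by 0.41, Zfp36 by 0.49, Fos by 0.21 and Dusp1 by -0.74. On summed counts the first 4 of these turned direction, to -0.72 for Egr1, -0.46 for Junb, -0.20 for Zfp36 and -0.09 for Fos by edgeR, and likewise by DESeq2. Without rat 2, 5 members rose, against 25.4% of 7890 genes called (877 higher, 1130 lower). Egr1 was higher by 1.74 (SE 0.16, adjusted p = 0.000784), Junb by 1.16 (SE 0.18, adjusted p = 0.00313), Zfp36 by 1.16 (SE 0.22, adjusted p = 0.00625), Fos by 0.58 (SE 0.16, adjusted p = 0.0285) and Fosb by 0.51 (SE 0.14, adjusted p = 0.0271). In each of these 5 genes the 4 libraries at 8 weeks lay above the 3 at 2 weeks. The library left out was chosen for its levels of these same genes, and how many of all genes separate so was not counted. Jun (0.42, adjusted p = 0.193), Jund (0.19), Atf3 (-0.29) and Dusp1 (-0.44) did not pass.

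The rise went with other differences between the times. In IVD cells the summed OAF markers (Col1a1, Lum, Igfbp6 and Fibin, 4 of 4 listed, none at 0) were at 1955 to 3368 CPM at 8 weeks and 7223 to 13159 CPM at 2 weeks in CON libraries, and at 828 to 2263 against 6075 to 12516 CPM in LDP libraries. The 4 IVD markers summed to 7638 to 11445 CPM at 8 weeks and 15084 to 26487 CPM at 2 weeks. The 6 endothelial markers in IVD cells summed to 6.43 to 15.97 CPM at 8 weeks and 13.0 to 161 CPM at 2 weeks, with Plvap and Cldn5 at 0 in an LDP library at 8 weeks. The part of these differences in the rise was not tested. In mean levels over a class, fewer cells of a type and less RNA per cell cannot be told apart. The 2 times are also different rats, and those at 8 weeks were older, so that time after injury cannot be told apart from age or from how the rats of each time were handled.

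**Figure D3:**
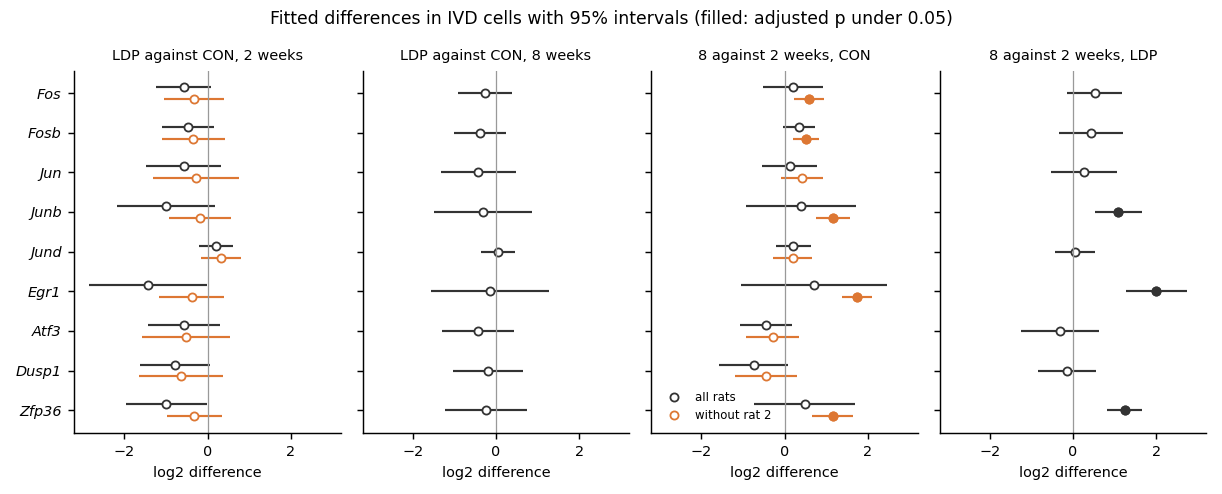
Fitted log2 differences in IVD cells with 95% intervals for the 9 listed members in 4 comparisons (LDP minus CON at 2 and at 8 weeks, 8 minus 2 weeks in CON and in LDP libraries), with all rats in black and without rat 2 in orange, and filled points at an adjusted p under 0.05. The Egr1 difference at 2 weeks goes from -1.43 to -0.38 without rat 2, and its CON time difference from 0.71 to 1.74 with a far shorter interval.

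The other genes of the pathway came from 3 lists. Of the further early response genes none passed for the injury at 2 weeks (0 of 41, 14 at an unadjusted p under 0.05, 36 below 0, median -0.46) or at 8 weeks (0 of 41, 12 at an unadjusted p under 0.05, 36 below 0) by limma. Over all genes 36.9% were above 0 at 2 weeks and 30.9% at 8 weeks, and 11.4 and 19.9% had an unadjusted p under 0.05. Nearest were, at 2 weeks, Klf6, a zinc finger factor (-1.10, adjusted p = 0.0537), and Cyr61, a matrix protein induced by serum (-1.23, adjusted p = 0.0931), and, at 8 weeks, Socs3, a feedback inhibitor of cytokine signalling (-1.03, adjusted p = 0.0788). At 2 weeks without rat 2 the list had 32 of 41 below 0 with a median of -0.28, and all genes then had a median of -0.11 with 35.9% above 0. Over time in CON libraries 2 of 41 rose, Cebpd (0.88, adjusted p = 0.0222) and Zfp36l2 (0.48, adjusted p = 0.0104), and without rat 2 11 of 40, the largest being Egr2 (1.46), Dusp5 (1.32), Fosl1 (1.17) and Cebpd (1.08). Of all genes 733 of 8022 rose, and 877 of 7890 without rat 2. In LDP libraries 1 of 39 rose (90 of 7792 of all genes), Egr2, a relative of Egr1 (1.49, adjusted p = 0.0174).

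Of the heat shock genes 5 of 11 rose with time in CON libraries with all rats (733 of 8022 of all genes), among them Hspa1a (0.87) and Dnajb1 (0.75), a chaperone and its partner, and Hsp90aa1 (0.66), and 4 of 11 without rat 2 (877 of 7890 of all genes). In LDP libraries 0 of 11 passed over time by limma, with 4 at an unadjusted p under 0.05 (22.4% of all genes). For the injury 0 of 11 passed by limma at 2 weeks, with 1 at an unadjusted p under 0.05 (11.4% of all genes), and 0 at 8 weeks, with 4 (19.9% of all genes). Among the upstream kinases and factors Egfr, the receptor for epidermal growth factor, fell with time in CON libraries (-0.66). Without rat 2, Srf, the factor that binds CArG boxes, was higher as well (0.57), and in LDP libraries it differed by 0.73 (adjusted p = 0.0643) among 17 tested, of which 0 passed by limma and 2 had an unadjusted p under 0.05 (22.4% of all genes). For the injury 0 of 19 passed by limma at either time, with 4 and 3 at an unadjusted p under 0.05 (11.4 and 19.9% of all genes).

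How far libraries of a group differed was compared with the differences by injury and time. The within-group SD of log2 levels in IVD cells was 1.11 for Egr1, 0.83 for Junb, 0.74 for Zfp36, 0.62 for Atf3, 0.60 for Dusp1, 0.57 for Jun, 0.54 for Fos, 0.46 for Fosb and 0.33 for Jund, and 0.247 for the median gene. These SDs lay at the 99.6th percentile of all genes for Egr1 and the 90.5th for Fosb, with the other members between them except Jund at the 72.4th. Without rat 2 the SD fell to 0.46 for Egr1, 0.37 for Junb and 0.33 for Zfp36. Most members thus varied more between libraries of 1 group than most genes did.

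The share of the sum of squares that went with time differed between members. Time took 27.8% of the variation of Egr1 over 16 libraries and 83.3% over the 14 libraries without rat 2. The same shares were 25.6 and 78.2% for Zfp36, 17.5 and 71.6% for Junb, 10.97 and 41.3% for Fos, and 16.1 and 23.2% for Fosb. They were 17.6 and 17.8% for the median gene. Rat 2 was left out for its levels of these same genes. For Jun, Jund, Atf3 and Dusp1 time took 0.646 to 10.98% without rat 2. Injury took 15.6% of Egr1, 17.9% of Zfp36 and 17.5% of Junb over 16 libraries, against 13.5% of the median gene. Without rat 2 it took 1.81% of Egr1, 4.24% of Zfp36, 4.43% of Junb, 15.1% of Atf3 and 16.9% of Dusp1, against 15.4% of the median gene. Rat within time took 55.4% of Jund, and the remainder, discs of 1 rat that differed in no shared direction, took 67.8% of Jun and 62.3% of Dusp1. These shares are descriptions and were not tested.

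**Figure D4:**
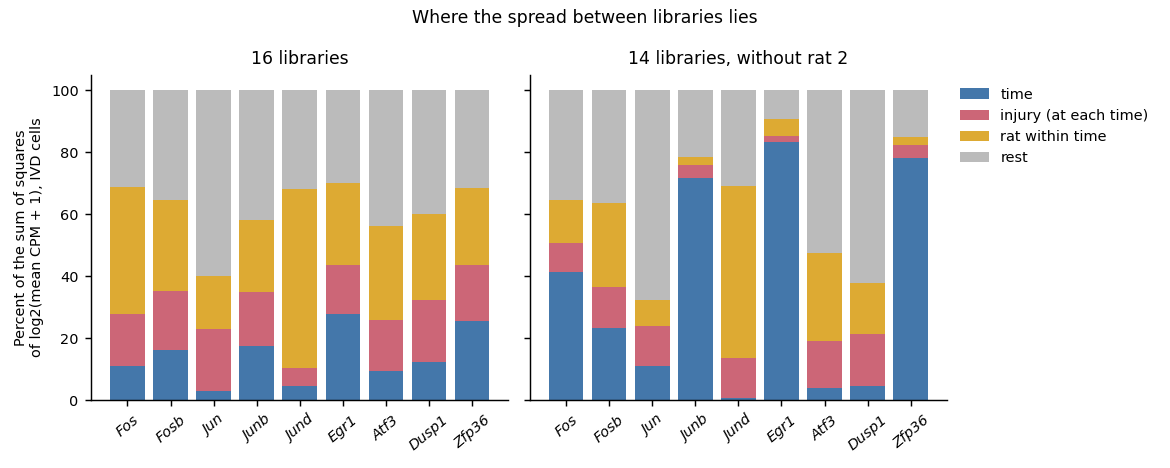
Percent of the sum of squares of log2 levels in IVD cells that went with time, injury at each time, rat within time and the rest, for each listed member, over all 16 libraries and over the 14 without rat 2. The time share of Egr1, Zfp36 and Junb grows from 27.8, 25.6 and 17.5% to 83.3, 78.2 and 71.6%, and is at most 12.3% for Jun, Jund, Atf3 and Dusp1 in both.

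Levels also differed between cell classes. As the classes were formed by clustering these same cells, the differences are given with no test. In the 7 libraries at 2 weeks other than CON rat 2, OAF cells exceeded NP cells by 3.41 log2 units for Fosb (SD 0.16), 3.09 for Fos, 2.13 for Zfp36, 1.78 for Junb, 1.70 for Egr1 and 1.62 for Jun, in 7 of 7 libraries each. Jund was higher by 0.49 in 7 of 7, Atf3 by 0.47 in 5 of 7, and Dusp1 by 0.11 in 3 of 7. Within the CON library of rat 2 the order was turned for Egr1 (2614 CPM in NP and 214 CPM in OAF cells), Junb (1254 and 235 CPM) and Zfp36 (257 and 110 CPM). NP and IAF cells were closer, Fosb being 0.74 and Fos 0.62 lower in NP cells and Zfp36 differing by 0.01.

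Endothelial cells lay above OAF cells in 7 of 7 libraries for 8 of the 9 members, by 1.79 for Zfp36, 1.74 for Junb, 1.09 for Jun, 1.03 for Egr1 and 0.41 for Fos. In CON rat 2, which these 7 leave out, Fos ran the other way (1025 CPM in endothelial and 1242 CPM in OAF cells). The summed level of the 9 members was 6978 to 11201 CPM in endothelial, 4396 to 5417 CPM in OAF and, without CON rat 2, 1515 to 2733 CPM in NP cells per library, 3 ranges that did not overlap. In CON rat 2 the sum in NP cells was 8934 CPM. Without CON rat 2, myeloid cells had more Zfp36 (by 1.86) and Junb (by 1.11) than IVD cells of the same library in 13 of 14 libraries. They had less Dusp1 (by 0.96, in 13 of 14) and Egr1 (by 1.26, in 12 of 14). In CON rat 2 Zfp36 and Junb ran the other way (204 and 268 CPM in myeloid, 226 and 1063 CPM in IVD cells). Dusp1 and Egr1 were lower in myeloid cells there as well. Lymphoid cells had less Atf3 (by 3.11), Fos (by 2.51) and Dusp1 (by 1.79) in 11 of 11 libraries, and more Jund (by 0.66) in 9 of 11.

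**Figure D5:**
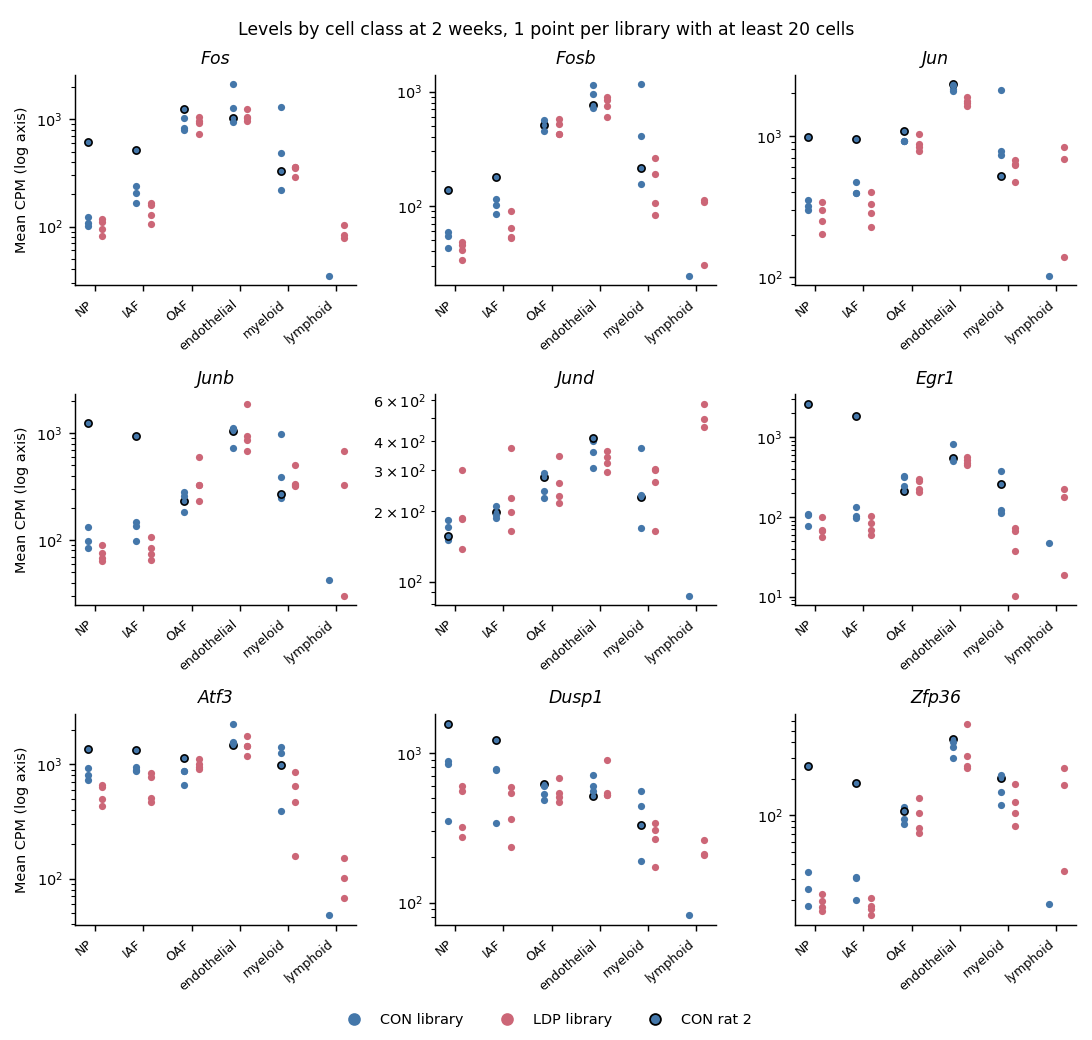
Mean CPM (log axis) of the 9 listed members at 2 weeks in 6 classes, 1 point per library with at least 20 cells of the class. Fos and Fosb separate OAF and endothelial cells from NP and IAF cells, and the CON library of rat 2 (ringed) stands above the other NP and IAF points for Egr1 (2614 CPM in NP cells).

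Outside the disc cells the injury comparison gave no called member. In endothelial cells at 2 weeks 0% of 8501 genes passed (433 at an unadjusted p under 0.05), and the members differed by -0.34 (Jun) to 0.03 (Junb and Dusp1), 0 of them at an unadjusted p under 0.05. In myeloid cells at 2 weeks 0% of 8019 genes passed (296 at an unadjusted p under 0.05). There Egr1 was at 122, 260, 114 and 374 CPM in CON and at 10.3, 66.4, 72.9 and 37.8 CPM in LDP libraries, from 259, 62, 83 and 25 and from 32, 111, 369 and 212 cells. LDP was lower in 4 of 4 rats, by 2.33 log2 units (log2 difference -2.33, SE 0.59, adjusted p = 0.978). The lowest share of myeloid cells with Egr1 in an LDP library was 3.13% over all UMIs and 0% after thinning. With each rat left out the difference ran from -2.89 to -1.95.

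At 8 weeks, with 3 rats each, 0.714% of 7841 genes passed in myeloid cells (1118 at an unadjusted p under 0.05) and 0% of 8239 in lymphoid cells (227 at an unadjusted p under 0.05). The count in myeloid cells was 0 with any 1 rat left out and 102 without the rat block. Among the members in myeloid cells Jun differed by -1.27 (SE 0.41, adjusted p = 0.299) and Zfp36 by 0.91 (SE 0.52, adjusted p = 0.469), lower and higher in 3 of 3 rats. Fosb (-1.35, SE 0.82), Fos (-1.11, SE 0.65) and Egr1 (-0.93, SE 0.49) were also lower in 3 of 3 rats. The other members differed in direction between rats. These means rest on 147, 124 and 35 CON cells and 47, 34 and 141 LDP cells of rats 5 to 7. In lymphoid cells each member's adjusted p was 0.999. CON libraries at 8 weeks have no endothelial class, so that comparison could not be made.

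Per IVD cell thinned to 1000 UMIs, 2.21 of the 9 members were detected on average in CON and 1.43 in LDP libraries at 2 weeks, and 1.83 and 1.57 at 8 weeks. The 2-week CON libraries of rats 1 to 4 had 1.81, 3.52, 1.98 and 1.54, and their LDP libraries 1.27 to 1.57. Cells with 5 or more members made up 3.92, 29.8, 3.79 and 3.23% of IVD cells in CON rats 1 to 4, 2.34 to 3.70% in their LDP libraries, 4.97 to 8.98% in CON and 2.22 to 7.596% in LDP libraries at 8 weeks. Egr1 was detected after thinning in 10.8, 65.2, 8.95 and 8.10% of IVD cells in CON and 6.23, 7.20, 8.69 and 5.73% in LDP libraries at 2 weeks. At 8 weeks the shares were 22.8, 25.0, 18.5 and 22.3% in CON and 12.7, 11.8, 27.8 and 30.5% in LDP libraries. As with CPM, CON rat 2 was highest and every 8-week library lay above the 7 other 2-week libraries. Thinning left out 212 and 421 IVD cells in CON and LDP at 2 weeks and 178 and 72 at 8 weeks. Over all UMIs the Egr1 shares were 24.3 to 86.6% in CON and 20.8 to 26.1% in LDP at 2 weeks, and 46.2 to 53.7% and 37.2 to 60.6% at 8 weeks.

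The members' levels were correlated to different degrees over the 16 libraries. The correlation of a member with the mean of the other 8 was 0.92 for Fos, 0.88 for Junb, 0.86 for Egr1, 0.85 for Jun and Zfp36, 0.78 for Fosb, 0.54 for Dusp1, 0.48 for Atf3 and -0.06 for Jund. Without CON rat 2 it was 0.75 to 0.87 for the first 6 of these genes, 0.25 for Dusp1, 0.32 for Atf3 and 0.10 for Jund. Over the 28 pairs without Jund the median r was 0.68, and 0.59 over the 15 libraries without CON rat 2, while the 8 pairs with Jund had a median of -0.10. Of 6485 other genes at 5 CPM or more in every library, those most like the members' mean were Nr4a1, an early response nuclear receptor (r = 0.92), Ier5l (0.88), Myc, a growth factor-induced transcription factor (0.86), Phlda1 (0.86) and Slc20a1, a phosphate transporter (0.84). Without CON rat 2 these values were 0.85, 0.78, 0.77, 0.73 and 0.70, and the 5 highest were then Cpm (0.86), Nr4a1 (0.85), Ppp6c (0.85), Snai1 (0.84) and Tdp2 (0.84), so that only Nr4a1 was in both sets. The libraries share rats, groups and the preparation, and the correlations are descriptions over 16 points.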

How the data were processed

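Libraries were made by the study with the 10x 3′ v3.1 chemistry and sequenced on an Illumina NovaSeq. Per the labels the submitters' processing notes name Partek and the rn6 build; the aligner is not given in the sources used here. The authors kept cells with less than 10% mitochondrial reads, 500 to 3000 genes and 500 to 30000 UMIs, clustered each of the 4 groups apart by K-means and named classes by markers. Doublet removal is not given in the sources used here, and none was done. Deposited expression values are log2 (CPM + 1) per cell. The deposited total per cell is an expected count, not whole in most cells, and the deposited mitochondrial value is a percent of reads. UMIs recovered from CPM and the totals were whole within 0.02 for 99.4% of values above 0.

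Means of CPM per library and class (at least 20 cells, 3 rats) were tested as log2 (mean CPM + 1) with limma 3.58.1 (R 4.3.3), rat as block for LDP against CON, with Benjamini-Hochberg adjustment over all genes listed in every file of the comparison and at 5 CPM or more in 4 libraries (3 where 6 entered). Time was tested over the 8 CON or the 8 LDP libraries. edgeR 4.0.16 and DESeq2 1.42.0 on summed recovered counts, a pseudocount of 0.5, no filter, all cells, no block and each rat left out were alternatives. Python 3.11.15, numpy 2.4.6, pandas 2.3.3, scipy 1.17.1 and matplotlib 3.10.9 were used for levels and figures. On simulated data limma recovered 78% of genes changed 2-fold and 100% changed 4-fold over 8355 genes of the 2-week comparison. The values were 93% and 99% over 8022 genes of the CON time comparison, and 62% and 93% over 8802 genes in OAF cells. In the 2-week comparison limma made 9 false calls and DESeq2 71. The changed genes were drawn at random among genes with a mean log2 level above 5, so recovery for lower genes was not measured. The median SE over all genes was 0.16, against 0.28 (Fosb) to 0.64 (Egr1) for the members other than Jund. Recovery for genes as variable as the members was not measured.

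CON and LDP libraries with 1 number come from the same rat, which pairs them. The deviations of such pairs correlated at -0.194, 0.218, 0.210 and -0.194 for rats 1 to 4 and 0.165, 0.512, 0.0726 and 0.403 for rats 5 to 8. Libraries of a rat shared at most 0.462% of cell barcodes, those of different rats at most 0.720%. Each rat is 1 replicate. Members and lists were chosen with earlier results of these data known. Outside the members, up to 4 genes per list and comparison were named by size among those called, otherwise up to 2 by p, and 5 by their correlation with the members. Some results that this rule would name are not reported here.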

Additional observations from a re-analysis of the deposited data

Results flagged for a closer look

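Among 117 sets of 4 libraries (9 members by class and group), 12 held a library set apart from its group by Dixon's ratio, or 10.3%. The sets cover IVD, NP, IAF, OAF and endothelial cells. Myeloid and lymphoid cells were not screened in this way. Chance flags about 1 in 20 independent sets, but these sets share cells, libraries and correlated genes, so that share is no expectation for the count. The CON library of rat 2 was the highest in 9 of these 12. In IVD cells it held 681 CPM of Fos, 1063 CPM of Junb and 2159.8 CPM of Egr1. In NP cells it held 613 CPM of Fos, 981 CPM of Jun, 1254 CPM of Junb and 2614 CPM of Egr1, in IAF cells 1822 CPM of Egr1, and in OAF cells 1071 CPM of Jun (the next library 924 CPM). The other 3 were in endothelial cells at 2 weeks. Junb was low in CON rat 3 (734 CPM, the next 1054 CPM), Atf3 was high in CON rat 4 (2266 CPM, the next 1572 CPM), and Dusp1 was high in LDP rat 4 (900.4 CPM, the next 536 CPM).

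In cells that the authors left without a class no injury or time effect was tested. There the LDP library of rat 6 held more than the highest CON library of its time for Fos (2379.5 against 1565 CPM), Fosb (1295.5 against 1066 CPM), Egr1 (1099.6 against 880.4 CPM) and Atf3 (2441 against 2400.6 CPM). The LDP library of rat 4 did so for Jund (319 against 286 CPM).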

How the results depend on the processing

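Of the members' results, 439 kept direction and side of the threshold under other settings, 15 turned direction and 5 lost a call. With each rat left out 524 kept both, 54 turned, 6 gained and 10 lost a call. None of the turned values passed a test. The cause of a changed value was not tested.

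Without the replicate block, which pairs libraries of the same rat, 2 genes passed at 2 weeks and 39 at 8 weeks in IVD cells, 1 for the difference of the effects, 0 in NP, 9 in IAF, 113 in OAF, 0 in endothelial and 0 in myeloid cells at 2 weeks, and 102 in myeloid and 0 in lymphoid cells at 8 weeks. The block changed no call of a member.

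On all cells instead of IVD cells the LDP effect at 8 weeks turned for Fos (0.12), Jund (-0.042) and Egr1 (0.083), the CON time difference for Fos (-0.20), Fosb (-0.10) and Jun (-0.070), and the LDP time difference for Jund (-0.0048). The CON time difference also turned by edgeR for Fos (-0.086), Junb (-0.46), Egr1 (-0.72) and Zfp36 (-0.20), and by DESeq2 (-0.072, -0.44, -0.70 and -0.19). Counts of genes called were 19 by edgeR, 233 by DESeq2 and 0 on all cells for the LDP effect at 2 weeks, 499 by DESeq2 and 1 on all cells at 8 weeks, 6 by DESeq2 for their difference, and 962 by DESeq2 and 37 on all cells for LDP over time. Members detected per IVD cell over all UMIs were 4.63 and 3.797 in CON and LDP at 2 weeks and 4.52 and 4.36 at 8 weeks. Without rat 2 the time share was 41.3% for Fos, 23.2% for Fosb, 10.98% for Jun, 71.6% for Junb, 0.646% for Jund, 83.3% for Egr1, 4.03% for Atf3, 4.49% for Dusp1 and 78.2% for Zfp36.

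With each rat left out in turn the genes called ranged from 0 to 5 for the LDP effect at 2 weeks, from 1 (without rat 7) to 464 (without rat 4) at 8 weeks, from 0 to 7 for their difference, from 872 (without rat 3) to 2007 (without rat 2) for CON over time and from 48 (without rat 2 or 3) to 1123 (without rat 4) for LDP over time. They ranged from 0 to 5 in NP, IAF and endothelial cells, from 76 to 112 in OAF cells, were 0 in myeloid cells at 8 weeks and 0 to 29 in lymphoid cells. Members that turned had these ranges. LDP at 8 weeks: Fos -0.61 to 0.015, Jun -0.88 to 0.15, Jund -0.041 to 0.21, Egr1 -0.42 to 0.14, Atf3 -0.91 to 0.14 and Dusp1 -0.65 to 0.21. Difference of the effects: Fos -0.035 to 0.59, Fosb -0.25 to 0.47, Jun -0.31 to 0.71, Junb -0.15 to 1.25, Jund -0.28 to 0.038 and Atf3 -0.34 to 0.71. CON over time: Jun -0.071 to 0.42 and Jund -0.0097 to 0.33. LDP over time: Jun -0.0042 to 0.64, Jund -0.094 to 0.25, Atf3 -0.62 to 0.13 and Dusp1 -0.38 to 0.060. IAF cells: Jund -0.022 to 0.38. OAF cells: Fos -0.22 to 0.069, Fosb -0.18 to 0.011, Jund -0.079 to 0.13, Egr1 -0.22 to 0.016, Dusp1 -0.20 to 0.085 and Zfp36 -0.30 to 0.091. Endothelial cells: Fos -0.46 to 0.0072, Junb -0.22 to 0.25, Dusp1 -0.077 to 0.10 and Zfp36 -0.42 to 0.014. Myeloid cells: Fos -0.84 to 0.12, Junb -0.29 to 0.14 and Jund -0.056 to 0.17 at 2 weeks, and Junb -0.59 to 0.59 at 8 weeks. Lymphoid cells: Fosb -0.57 to 0.62, Jun -0.67 to 1.00, Junb -1.04 to 0.00017, Jund -0.11 to 0.36 and Atf3 -0.84 to 0.26.

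Over the 13 alternatives the LDP time difference ran from 1.72 to 2.32 for Egr1 (adjusted p 4.58e-10 to 0.0533), 0.84 to 1.41 for Zfp36 (4.60e-06 to 0.429) and 0.75 to 1.31 for Junb (0.00164 to 0.442). Egr1 lost its call without rat 2 and on all cells (0.0517), and Zfp36 without rat 2, without rat 3 (0.0536) and on all cells. Dusp1 fell in CON over time only without rat 4 (-1.09, adjusted p = 0.0363). The NP, IAF and OAF names in LDP files were assigned here, and with NP and IAF cells joined, a choice made after seeing the data, 0 members passed.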
